A study of Mus musculus with 6 samples.

Results

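The immediate early response genes outside the AP-1 family were examined in ATAC-seq peak lists of white preadipocytes. The 10 genes were Egr1, Egr2, Egr3, Ier2, Ier3, Ier5, Atf3, Myc, Dusp1 and Srf, of 55450 genes in the annotation (GENCODE M21, mouse build mm10). Their loci were the gene bodies and the 20 kb on either side. Peaks were gathered into windows that reach 250 bp to either side of a summit, and 138 of 179248 windows were centred in these loci. Between 280 and 303 summits per library fell into the loci, of 299433 to 299620 in each list. The cells were primary preadipocytes from the inguinal white fat of C57BL/6 mice of 8 to 12 weeks, cultured and collected on day 0, before the differentiation mix was added. The labels name no serum or growth factor pulse. According to the methods, the preadipocytes were grown to confluency in medium with fetal bovine serum. Wild type (WT, 3 libraries) was compared with double knockout (DKO, 3 libraries), in which Hmgn1-/- and Hmgn2-/- are combined and the nucleosome-binding proteins HMGN1 and HMGN2 are lost from all cells of the animal. The comparison asks whether chromatin accessibility at these genes differs without HMGN. How many mice each culture came from was not given in the sources used here, so the p-values measure the spread between these libraries.

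Immediate early genes are transcribed within minutes of a stimulus, because their activators are already present in resting cells and need no new protein synthesis. A central one is serum response factor, encoded by Srf, which binds the CArG box at the core of serum response elements. It acts with ternary complex factors such as ELK1, which MAP kinases phosphorylate, or with myocardin-related factors, which respond to actin. CREB, bound at the cyclic AMP response element (CRE), drives a second route to several of the same promoters. Egr1, Egr2 and Egr3 encode zinc finger transcription factors, Atf3 a stress-induced member of the ATF/CREB family and Myc the bHLH factor that works with MAX. Dusp1 encodes a nuclear phosphatase that switches MAP kinases off. Ier2, Ier3 and Ier5 were named for their early induction, and Ier3 is known as a regulator of cell survival.

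CArG boxes are shown because the serum-response sites among the windows were picked out by them. Those of the Egr1 promoter window and a second one before another RefSeq start of Egr2 are not printed. Each line gives 10 bases on either side of the match, 5′ to 3′ on the plus strand of GRCm38, with the CArG box in capitals. The first pair lies in the promoter windows of Egr2 (chr10:67537797-67537806) and Egr3 (chr14:70076843-70076852).
Egr2 promoter: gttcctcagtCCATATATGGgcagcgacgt
Egr3 promoter: ctttgtctgtCCATATATGGgcagctacgt
These stretches have the same CArG box and are identical at 25 of 30 bases. The next pair lies in distal windows, 11 kb before the Egr3 start (chr14:70066113-70066122) and 10.2 kb before the Ier5 start (chr1:155109896-155109905).
Egr3 distal: aaaggagaagCCAAAATTGGccagactgag
Ier5 distal: cacctcgcccCCATATTTGGaaaggtcttc
The last one lies at a far upstream start of Dusp1 (chr17:26561401-26561410), described with the Dusp1 values.
Dusp1 far start: ccctcgggccCCTTTAATGGggcggcggaa
No other pair among these and the Srf site had more than 17 identical bases of 30 in either orientation.

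The RefSeq promoter table (GRCm38.p6) matched 6 of the 10 genes, Egr2, Ier3, Ier5, Atf3, Dusp1 and Srf. Srf is shown because its promoter holds CArG boxes, the sequence bound by the protein it encodes. The stretch from 150 to 41 bases before the RefSeq start of Srf (chr17:46556203-46556312, minus strand) is given with 2 CArG boxes and the EGR site GCGNGGGCG in capitals.
Srf promoter: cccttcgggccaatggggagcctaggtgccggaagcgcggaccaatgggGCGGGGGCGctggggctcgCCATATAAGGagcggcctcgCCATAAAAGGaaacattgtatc
Matches to the CRE, the sequence of the second route, at Ier2 (chr8:84662890-84662897) and Dusp1 (chr17:26508608-26508615, minus strand) are in capitals below.
Ier2 CRE: atactgagagTGACGTCActgcaacacc
Dusp1 CRE: gtagggcgggTGACGTCAccgcccggtc
The Ier2 site lay in its promoter window, and that of Dusp1 in the RefSeq promoter of its short transcripts.

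Motifs were read on both strands within 100 bp of each window centre. A CArG box was present in 7 of 138 windows of the loci (5.07%), beside 0.971% of all windows and 0.807% of windows within 1 kb of a TSS. Of the 7 windows, 5 were promoter windows of Egr1, Egr2, Egr3, Dusp1 (at the far start, not the short transcripts) and Srf. A CArG box was held by 2 of 87 distal windows (2.3% beside 1.00% of all distal windows). The CRE (TGACGTCA) was present in 3 windows (2.17% beside 0.659%), GCGNGGGCG in 4 (2.90% beside 0.884%), the ETS site CCGGAAGT in 3 (2.17% beside 0.712%) and the E-box CACGTG in 8 (5.80% beside 3.58%). AP-1 sites (TGACTCA or TGAGTCA) were present in 23 windows, 16.7% beside 23.6% of all windows, and in 24.1% of the distal windows of the loci beside 26.6% of all distal windows. The letters of the CRE and of AP-1 differ, so that no match counted as both, and a match describes the sequence alone. In the RefSeq promoters, of 300 bases, a CArG box was present in 1.63% and a CRE in 1.79%.

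The lists carry no read totals. The most common background level was between 2.41 and 2.58 cut sites in 5 libraries and lowest in DKO replicate 3, at 2.05. The Hmgn2 promoter window had a summit in the 3 WT libraries and none in the 3 DKO libraries (limma, adjusted p = 0.0312), whereas the Hmgn1 promoter kept its peak in all 6 (log2 change 0.14, SE 0.13, adjusted p = 0.706), so it does not check that deletion. Of 8 preadipocyte markers, 6 had a promoter peak in every library (Pdgfra, Pdgfrb, Cd34, Dpp4, Col1a1 and Thy1), with a summed fold enrichment of 42.2 to 47.8 in WT and 37.7 to 43.8 in DKO. Of the others, Dlk1 had a promoter window but not a summit in every library, and Ly6a had no window. None of the 5 mature adipocyte markers had a promoter window. Leukocyte markers were not absent, with promoter peaks in all 6 libraries for 3 of 5 (Cd68, Csf1r and Cd14) but no window at Ptprc. Their sums were between 16.7 and 18.4 in WT and between 15.4 and 22.4 in DKO. Endothelial markers had such peaks for 2 of 4 (Pecam1 and Kdr), with sums of 17.9 to 25.4 in WT and 23.9 to 25.0 in DKO, and the part of these cells in the values below was not tested.

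None of the 138 windows passed the test in the fit of all windows, where 0.0591% of all windows did. The values compared are fold enrichments at the summits, that is the pileup of cut sites plus 1 over the local background plus 1, quantile-normalized on the log2 scale (limma with Benjamini-Hochberg adjustment over all windows, threshold 0.05). At an unadjusted p under 0.05 there were 24 of 138 windows (17.4%), beside 11.8% of all windows. Of these, 20 were higher in DKO (14.5% beside 5.68%) and 4 lower (2.90% beside 6.1%), and 4 of the 20 had no WT summit. When the fit was restricted to the windows that had a listed summit in every library (shared windows), 1 of 99 passed (1.01% beside 0.875% of all shared windows). That window lies 11 kb before Egr3. In the same 99 windows, all DKO values lay above all WT values in 32 (32.3%), beside 9.43% of all shared windows, and below them in 6 (6.06%), beside 8.22%. These counts are on the normalized values. On the fold enrichments as deposited, which differ in scale between libraries, a count added after the values were seen, they were 9 above (9.09% beside 2.2%) and 8 below (8.08% beside 14.3%). The values given per library below are the deposited ones, and the log2 changes are of normalized values, so overlap below is that of the deposited values unless the normalized ones are named. A p that missed the threshold does not show that the genotypes were equal.

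The direction of these differences depended on the scale. On fold enrichment, 99 of 138 windows were higher in DKO (71.7%, median log2 change 0.19), beside 51.4% of all windows (median 0.01), and the count was 90 without WT replicate 3 and 103 without DKO replicate 3. On the summit pileup alone, 66 of 138 were higher (47.8%, median -0.01), beside 49.1% of all windows. On the unscaled fold enrichment 69 of 138 were higher (50%, median 0.003), beside 32.7% of all windows, whose median moved to -0.14. The windows are grouped in 10 loci, and the difference between these shares was not tested. By role in the locus, the median log2 change on fold enrichment was 0.20 in the 25 windows at a start of the gene itself, 0.20 in the 26 at a start of a neighbouring gene and 0.17 in the 87 distal windows. Of these windows, 22, 19 and 58 were higher. Over all windows within 1 kb of a TSS the median was 0.08, with 63.9% higher, and over all distal windows it was -0.008, with 48.9% higher. On the pileup the medians of the loci were -0.06, -0.01 and 0.01, beside 0.06 in all windows near a TSS and -0.016 in all distal windows.

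Among the Egr promoters, Egr1 had the largest difference, and it was seen on both scales. The Egr1 promoter window (chr18:34860608-34861108) is centred at -349 bp from the second annotated TSS, in the 5′ UTR of the longer transcript, and holds 3 CArG boxes, at -54, -16 and 0 bp from its centre. Its fold enrichment was 5.91, 5.18 and 5.83 in WT and 7.15, 6.59 and 6.58 in DKO. All DKO libraries were above all WT libraries, as deposited and normalized. The log2 change was 0.45 (SE 0.18, limma, adjusted p = 0.353), and it was 0.26 (SE 0.09, adjusted p = 0.294) on the pileup, so neither passed the test. The summit pileups were 237, 168 and 303 cut sites in WT and 286, 266 and 198 in DKO, which overlap before normalization. A second window at the first annotated TSS of Egr1 had fold enrichments of 4.49, 5.35 and 4.8 in WT and 4.14, 4.55 and 4.94 in DKO, and the genotypes overlapped.

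Egr2 encodes KROX20, a factor known from adipocyte differentiation as well as from myelination. Its promoter window (chr10:67537552-67538052) is centred at -67 bp from a TSS, and the CArG box printed above lies 1 bp from the window centre. The fold enrichment was 9.34, 10.6 and 9.76 in WT and 11.3, 10.2 and 9.83 in DKO (log2 change 0.27, SE 0.16, limma, adjusted p = 0.475). The genotypes overlapped on both scales, and on the pileup the log2 change was -0.02 (SE 0.12). The Egr3 promoter window (chr14:70076669-70077169, -284 bp from the TSS), with the same CArG box, had 8.49, 7.38 and 9.41 in WT and 8.35, 8.0 and 7.01 in DKO. The deposited values overlapped and the normalized ones did not, though the highest WT and the lowest DKO value both rounded to 3.01 (log2). This was the smallest difference of the 3 Egr promoters (log2 change 0.08, SE 0.13, adjusted p = 0.852; pileup -0.02, SE 0.09).

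The 3 Ier promoters were higher in DKO on fold enrichment, without passing the test, and 2 of them were not on the pileup. At Ier3, the window over the start (chr17:35821465-35821965, 5′ UTR) had fold enrichments of 7.67, 7.82 and 9.56 in WT and 10.4, 11.6 and 7.55 in DKO. As deposited, DKO replicate 3 was below every WT library and the other DKO libraries were above them, whereas all DKO libraries were above WT after normalization. The log2 change was 0.41 (SE 0.15, limma, adjusted p = 0.320) on fold enrichment and 0.04 (SE 0.16) on the pileup. At Ier2 (chr8:84662581-84663081, over the TSS, with the CRE printed above), the values were 5.35, 4.59 and 4.73 in WT and 4.99, 5.77 and 5.48 in DKO (log2 change 0.30, SE 0.22, adjusted p = 0.572; pileup -0.09, SE 0.11). At Ier5 (chr1:155099493-155099993, -107 bp), they were 14.8, 12.2 and 14.3 in WT and 15.0, 15.7 and 11.4 in DKO (log2 change 0.18, SE 0.12, adjusted p = 0.564; pileup -0.02, SE 0.12). The deposited values of the genotypes overlapped at both, and the normalized ones at Ier5.

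At Atf3, Myc and Srf the deposited fold enrichments of the genotypes overlapped, and after normalization those of Srf did. The Atf3 window (chr1:191183248-191183748, -158 bp from a TSS within the gene) had fold enrichments of 12.3, 11.1 and 13.9 in WT and 11.8, 14.5 and 11.4 in DKO (log2 change 0.19, SE 0.11, limma, adjusted p = 0.475; pileup -0.02, SE 0.12). That of Myc (chr15:61984951-61985451, -190 bp) had 7.61, 6.63 and 7.47 in WT and 7.61, 7.38 and 7.0 in DKO (log2 change 0.21, SE 0.15, adjusted p = 0.589; pileup -0.08, SE 0.09). The Srf window (chr17:46556068-46556568, -143 bp) had 12.2, 11.9 and 14.2 in WT and 13.5, 13.3 and 10.8 in DKO, with DKO replicate 3 the lowest (log2 change 0.14, SE 0.11, adjusted p = 0.642; pileup -0.11, SE 0.10).

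Dusp1 has 2 annotated starts far apart, and the strongest window near a start was not at the short transcripts. The strongest (chr17:26561154-26561654) lies in an intron, 53.0 kb from the window over the start of the short transcripts and close to a start of Ergic1, and holds the CArG box of the Dusp1 far start. The genotypes overlapped there on both scales. Its fold enrichment was 6.90, 5.76 and 8.31 in WT and 5.42, 6.04 and 6.22 in DKO (log2 change -0.05, SE 0.17, limma, adjusted p = 0.959). The window over the start of the short transcripts (chr17:26508188-26508688), added after the values were seen, had 2.81, 2.20 and 2.79 in WT and 3.46, 2.51 and 2.55 in DKO. Its pileups were 100, 64 and 123 in WT and 111, 83 and 58 in DKO, well above the pileups of 23 to 41 at the far start. The log2 change of this window was 0.60 (SE 0.38, adjusted p = 0.499) over all windows and 0.17 (SE 0.16, adjusted p = 0.704) among shared windows, which need no values filled in for missing peaks.

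**Figure D1:**
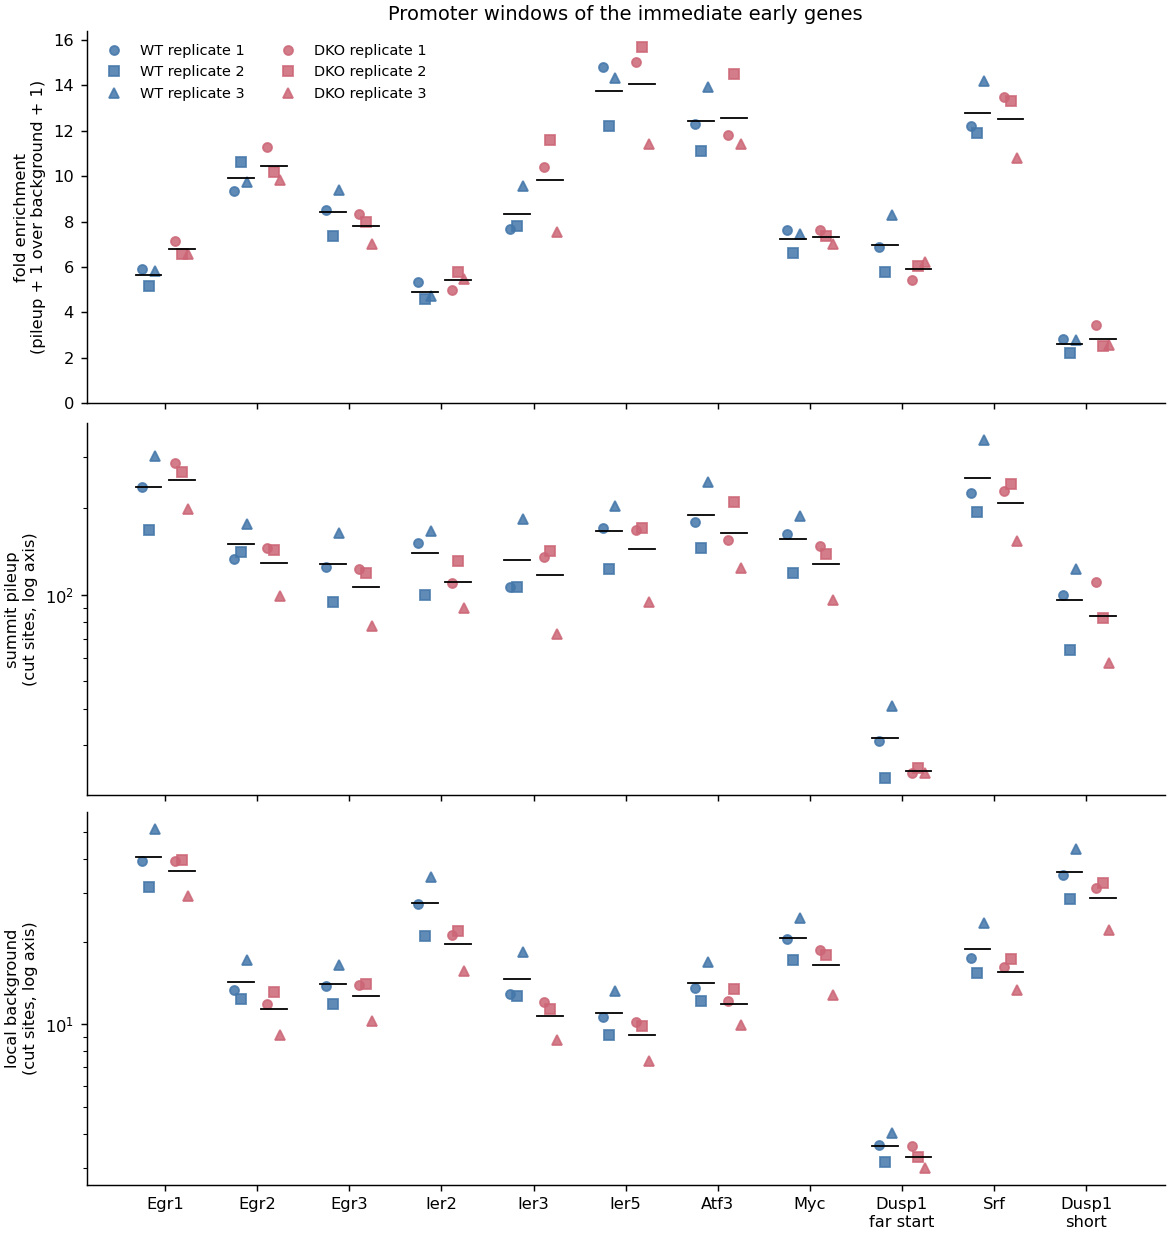
Deposited fold enrichment, summit pileup and local background (y axes, the lower panels on log axes) at the promoter windows of the 10 genes (x axis), with 1 point per library, coloured by genotype, and a bar for the mean of 3 libraries. Dusp1 is shown at the far start and at the short transcripts. Egr1 is the promoter where all DKO fold enrichments (6.58 to 7.15) lie above all WT values (5.18 to 5.91), and the pileups of the genotypes overlap at every gene.

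The order of the promoters differed between the measures. By the mean fold enrichment in WT, Ier5 was first with 13.8 ± 1.35 (SD, n = 3), followed by Srf with 12.8 ± 1.22 and Atf3 with 12.4 ± 1.40, which overlapped each other. Egr2 (9.89 ± 0.622), Egr3 (8.43 ± 1.02) and Ier3 (8.35 ± 1.05) formed a second run of overlapping neighbours. Myc (7.24 ± 0.526), the far Dusp1 start (6.99 ± 1.28), Egr1 (5.64 ± 0.401) and Ier2 (4.89 ± 0.408) formed the next, and the short Dusp1 start was last with 2.60 ± 0.348. By the mean pileup in WT, Srf (254 ± 79.2 cut sites) and Egr1 (236 ± 67.5) came first, and each gene overlapped the next down to the short Dusp1 start (95.7 ± 29.7). The far Dusp1 start was last, without overlap, at 31.7 ± 9.02. By p, Srf was highest in the lists, at ranks 1497 to 4357 of about 300000, with Egr1 at 4006 to 16796 and Ier2 at 28067 to 43809. The Dusp1 windows were the lowest, at 91048 to 129248 (far start) and 63123 to 163699 (short transcripts). Egr1 stood at 10968, 16796 and 12520 in WT and at 4006, 6287 and 5817 in DKO, without overlap.

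The local background is a part of the fold enrichment, and it was high at these promoters. The median local background at the 10 promoter windows was between 10.1 and 17.7 cut sites by library, beside medians of 2.45 to 3.18 over all windows, and reached 31.6 to 51.1 at Egr1 in WT. Divided by the most common background of its library, the local background was lower in DKO than in WT on average at all 10 promoters, with DKO at 0.721 (Ier2) to 0.941 (Dusp1, far start) of the WT mean. The ratio was below 1 at 77.0% of 14807 gene promoter windows, and at 90.7% of the 1531 whose mean over all 6 libraries was at least that of Ier5, the lowest of the genes other than Dusp1. Within this spread, the DKO values were all below the WT values at 1 of the 10 promoters, Ier3. This is 10%, beside 6.75% of the 14807 promoter windows and 1.70% of the 1531. The values of Ier3 were 5.35, 5.06 and 7.57 in WT and 4.69, 4.5 and 4.3 in DKO, whereas at Egr1 they were 16.2, 12.6 and 21.2 in WT and 15.2, 15.6 and 14.3 in DKO. WT replicate 3 was the highest library at each of the 10 promoters. Without it, the median log2 change of the 10 promoters on fold enrichment was 0.13, compared with 0.20 in all libraries.

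**Figure D2:**
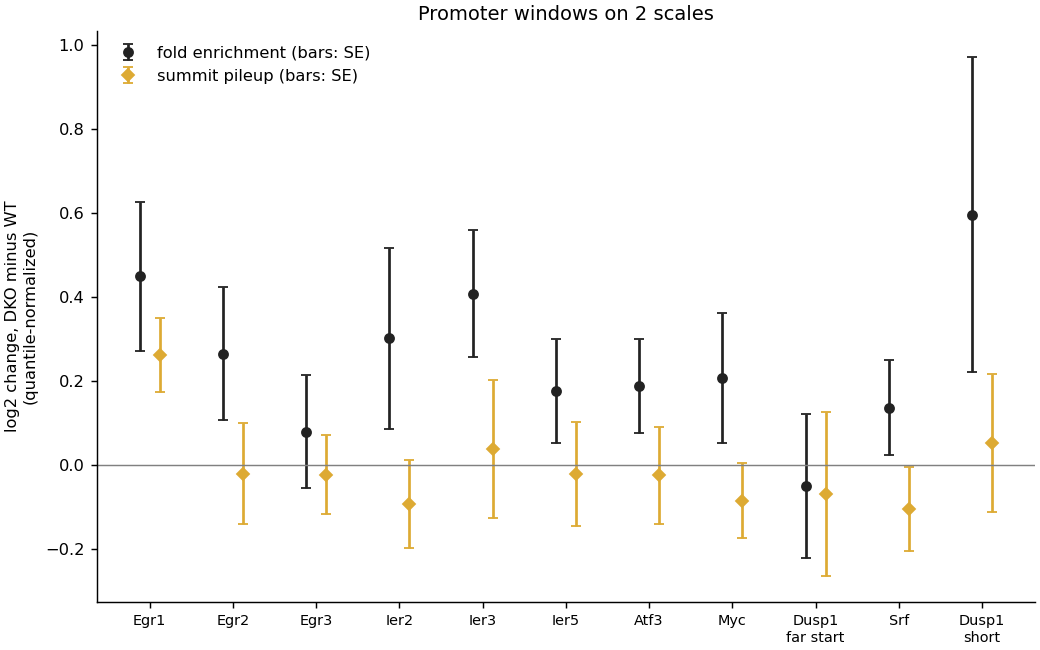
Log2 change from WT to DKO (y axis, quantile-normalized values, bars show the SE of the limma fit over 3 WT and 3 DKO libraries) at each promoter window (x axis), for fold enrichment and for the summit pileup. On fold enrichment 9 of the 10 windows chosen by strength are above 0, with a median of 0.20, and on the pileup 2 of 10 are, Egr1 and Ier3, with a median of -0.02.

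The distal window that passed the test among shared windows lies 11 kb before Egr3 (chr14:70065952-70066452, intergenic, nearest to a start of Gm33524) and holds the Egr3 distal CArG box at -85 bp from its centre. Its fold enrichment was 3.80, 3.15 and 3.73 in WT and 7.02, 5.58 and 5.16 in DKO, without overlap as deposited or normalized. The pileups were 21, 14 and 20 in WT and 40, 31 and 20 in DKO, which overlap. The log2 change was 0.86 (SE 0.21, limma, adjusted p = 0.0408), and 0.89 (SE 0.24, adjusted p = 0.176) in the fit of all windows, so the call was not made there. With any 1 library left out of the first fit, the adjusted p was between 0.050 and 0.193. The other distal window with a CArG box, 10.2 kb before Ier5 (chr1:155109595-155110095), had fold enrichments of 4.6, 4.07 and 4.03 in WT and 3.29, 4.88 and 2.44 in DKO (log2 change -0.14, SE 0.32, adjusted p = 0.904). The 2 distal serum-response matches thus differed in sign and the second overlapped between genotypes.

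**Figure D3:**
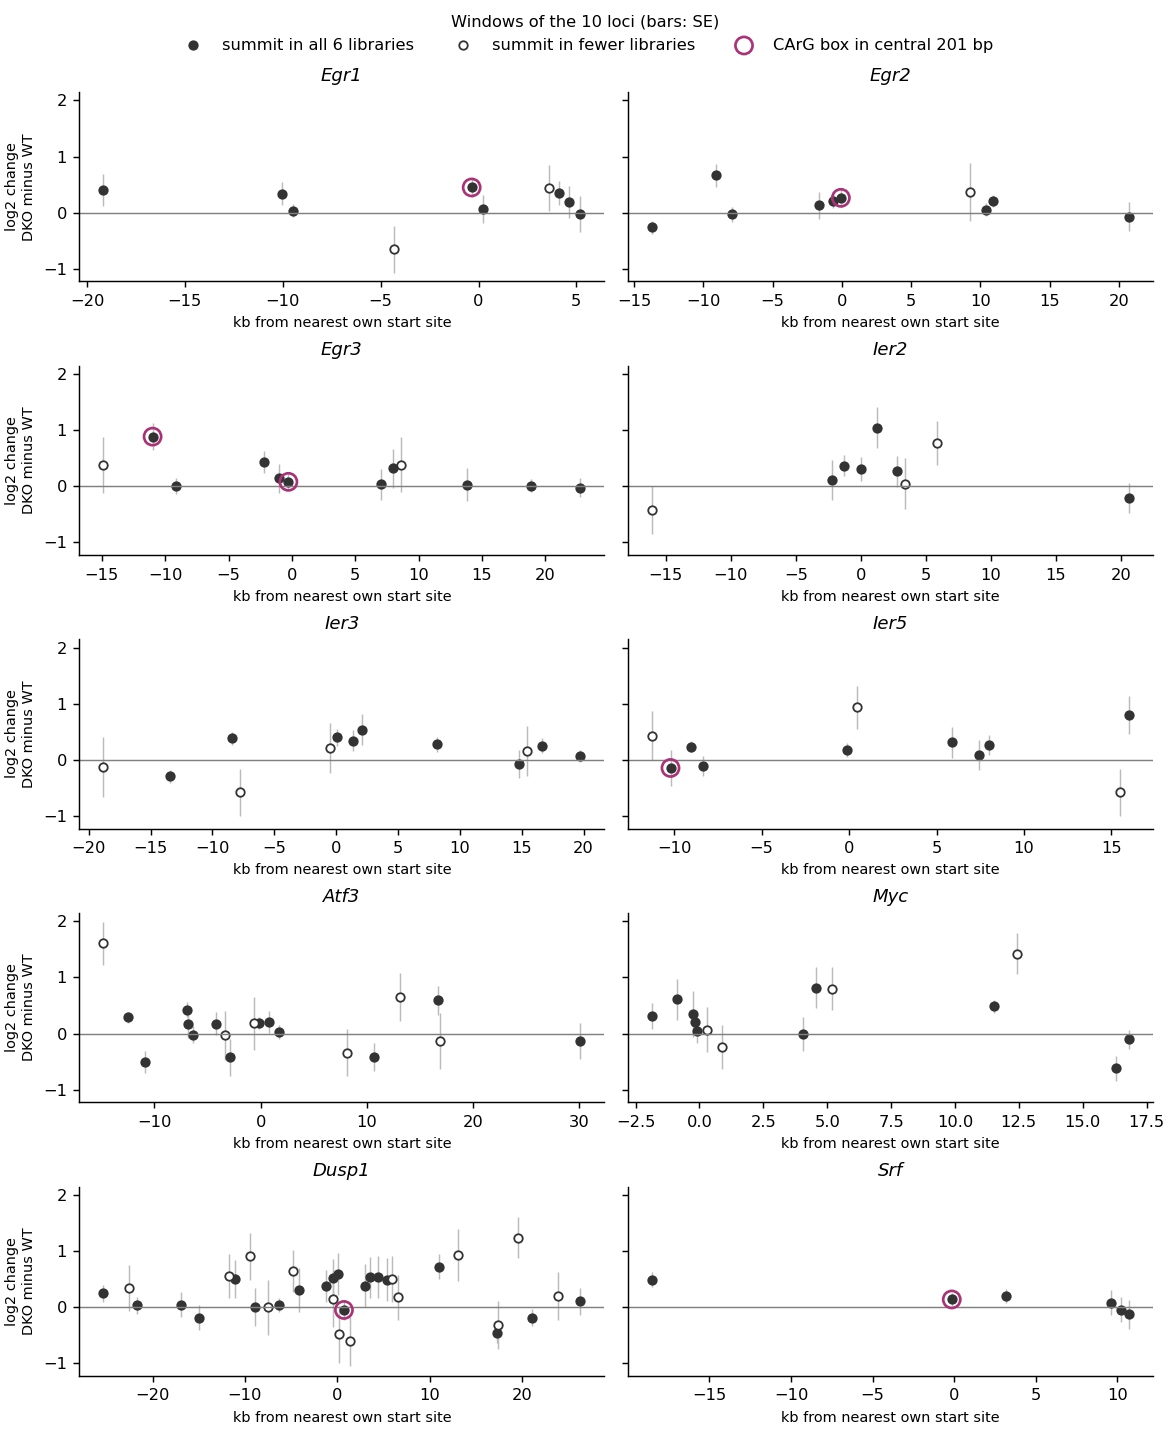
Log2 change in fold enrichment from WT to DKO (y axis, bars show SE) of the 138 windows of the 10 loci against the distance from the nearest annotated start of the same gene in kb (x axis). Filled points have a summit in all 6 libraries, open points in fewer, and circles mark the 7 windows with a CArG box. Most points lie above 0 (99 of 138), and the Egr3 window at -11 kb is the highest of those circled.

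Of the 10 windows with the smallest unadjusted p, 3 had summits in DKO alone, so that the value filled in for WT fixed their direction. The other 7 had a summit in every library and were higher in DKO on fold enrichment with and without scaling and on the pileup. Close to the Egr3 window in size was the one at 11 kb downstream of the short Dusp1 start (chr17:26497248-26497748, intron of AC122252.2), with fold enrichments of 3.92, 4.65 and 4.12 in WT and 6.34, 7.22 and 5.38 in DKO (log2 change 0.72, SE 0.23, limma, adjusted p = 0.221). At -9.1 kb from Egr2 (chr10:67528517-67529017) the values were 4.51, 3.36 and 5.90 in WT and 6.12, 6.91 and 5.87 in DKO (log2 change 0.66, SE 0.21, adjusted p = 0.231). The fold enrichments of the first did not overlap between genotypes, as deposited or normalized. Its pileups did, with 52, 50 and 64 in WT and 79, 85 and 46 in DKO. The fold enrichments of the second overlapped by 1 library as deposited and not after normalization. At 11.5 kb after the Myc start (chr15:61998690-61999190), the values were 8.93, 7.85 and 12.5 in WT and 12.3, 12.0 and 11.2 in DKO (log2 change 0.48, SE 0.12, adjusted p = 0.161). WT replicate 3 was the highest of all libraries in that window as deposited, and was below all DKO libraries after normalization.

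The remaining windows of that group included the strongest distal windows of Srf and Ier3. At -18.5 kb from Srf (chr17:46574441-46574941, intron of Ptk7), the fold enrichment was 6.86, 6.00 and 9.52 in WT and 9.86, 9.19 and 8.17 in DKO (log2 change 0.49, SE 0.14, limma, adjusted p = 0.189). At -8.4 kb from Ier3 (chr17:35813039-35813539, intergenic), it was 14.3, 12.4 and 13.3 in WT and 16.1, 15.5 and 15.1 in DKO (log2 change 0.38, SE 0.12, adjusted p = 0.225). The Ier3 fold enrichments did not overlap as deposited or normalized, and those of Srf overlapped as deposited alone. At Ier3 the pileups overlapped, with 210, 175 and 237 in WT and 217, 222 and 166 in DKO (log2 change 0.13). A window at a start of the non-coding gene D730003I15Rik, -6.9 kb from the Atf3 start (chr1:191224696-191225196), had 11.2, 10.2 and 12.5 in WT and 13.9, 11.8 and 14.9 in DKO, which overlap as deposited alone (log2 change 0.42, SE 0.14, adjusted p = 0.230).

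The 4 windows with an unadjusted p under 0.05 that were lower in DKO lay beyond these 10 in the order of p and were added after the values were seen. At 16.3 kb after the Myc start (chr15:62003475-62003975, intergenic), the fold enrichment was 7.15, 6.60 and 6.99 in WT and 3.90, 3.70 and 4.45 in DKO (log2 change -0.62, SE 0.22, limma, adjusted p = 0.299; pileup -0.61). At -10.9 kb from an Atf3 start (chr1:191193958-191194458, intronic), it was 7.96, 6.07 and 7.69 in WT and 4.68, 4.41 and 4.43 in DKO (log2 change -0.51, SE 0.19, adjusted p = 0.329; pileup -0.37). At -13.4 kb from Ier3 (chr17:35807988-35808488, intergenic), it was 13.1, 12.0 and 14.5 in WT and 10.4, 10.1 and 8.15 in DKO (log2 change -0.29, SE 0.12, adjusted p = 0.373; pileup -0.61). The genotypes did not overlap at these 3 on either scale. The fourth, 17.3 kb after the far Dusp1 start (chr17:26544566-26545066, intronic), overlapped between genotypes on both scales (log2 change -0.46, SE 0.18, adjusted p = 0.343; pileup -0.43).

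**Figure D4:**
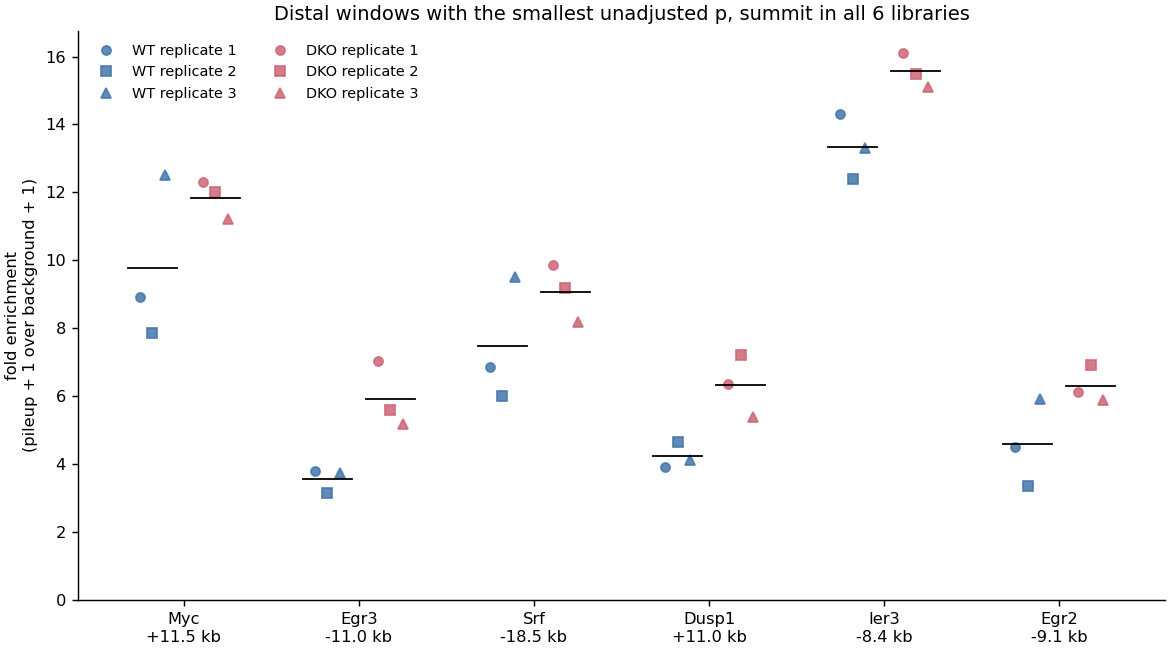
Deposited fold enrichment (y axis) in the 6 distal windows that were among the 10 with the smallest unadjusted p and had a summit in all 6 libraries, labelled by gene and distance in kb (x axis), with 1 point per library and a bar for the mean of 3. The DKO points lie above all WT points at Egr3, Dusp1 and Ier3, and WT replicate 3 lies among or above the DKO points at Myc, Srf and Egr2.

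The strongest distal windows of the other loci showed no common direction. Those of Egr1 (-9.5 kb, chr18:34850100-34850600, log2 change 0.04, SE 0.11), Egr3 (18.9 kb, chr14:70095941-70096441, 0.01, SE 0.12), Atf3 (1.7 kb, chr1:191216083-191216583, 0.03, SE 0.13) and Dusp1 (-6.3 kb, chr17:26514576-26515076, 0.04, SE 0.13) were close to 0, and their sign turned under other settings. The one at -9.1 kb from Ier5 (chr1:155108440-155108940) had fold enrichments of 12.9, 12.6 and 17.1 in WT and 15.2, 15.1 and 14.5 in DKO, which overlap as deposited alone (log2 change 0.24, SE 0.10, limma, adjusted p = 0.401). The other 3 were lower in DKO, none past the threshold. They lay at -13.7 kb from Egr2 (chr10:67523923-67524423), 20.6 kb from Ier2 (chr8:84641970-84642470) and 16.8 kb from Myc (chr15:62003992-62004492). The Egr2 window had 13.8, 13.2 and 17.2 in WT and 9.83, 11.7 and 11.3 in DKO, without overlap on either scale (log2 change -0.26, SE 0.12, adjusted p = 0.424, pileup -0.28). The log2 changes of those at Ier2 and Myc were -0.21 (SE 0.27, adjusted p = 0.783) and -0.10 (SE 0.17, adjusted p = 0.841).

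Summits in all libraries of 1 genotype and none of the other were found in 5 windows, 4 in DKO (2.90% beside 1.14% of all windows) and 1 in WT (0.725% beside 1.23%). The balance turned when a peak interval over 0.5 of the window was counted in place of a summit, with 1 window in DKO only and 3 in WT only. The DKO windows lay in the coding exon of Ier5 (chr1:155098958-155099458, 2.45, 2.78 and 3.30), at -14.8 kb from an Atf3 start (chr1:191197896-191198396, 5.93, 5.07 and 2.94), 12.4 kb after the Myc start (chr15:61999614-62000114, 4.25, 4.52 and 3.26) and 19.6 kb after the short Dusp1 start (chr17:26488634-26489134, 3.92, 3.37 and 3.18). The values are the fold enrichments of the 3 DKO libraries, and the Atf3 window was the highest of the 4 in replicates 1 and 2 and the lowest in replicate 3. The WT window lay in the Myc intron (chr15:61988045-61988545), with fold enrichments of 1.85, 2.20 and 2.20. None of the 5 passed the test on fold enrichment. A missing summit means that the region fell under the limit of its list or that the peak was drawn from a summit outside the window, not that the region was closed. No WT library had a peak interval over 0.5 or more of the width of the 4 DKO windows, and of the DKO libraries all 3 had one at Myc, 2 at Atf3 and 1 at each of Ier5 and Dusp1. At the WT window in Myc no library of either genotype had one.

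The other early genes and the partners of these factors were read at their strongest promoter windows. Over all genes, 0.0552% of 18103 such windows passed the test and 12.3% had an unadjusted p under 0.05. Of the 10 genes themselves, none passed and 2 had such a p, Egr1 and Ier3. Of 32 other immediate early genes outside AP-1, none passed the test in either direction (7 at an unadjusted p under 0.05), and 30 were higher in DKO on fold enrichment (median log2 change 0.26), 20 on the pileup (median 0.07). On direction, 9 of the 10 genes were higher on fold enrichment, 2 on the pileup, and 7 without scaling. Over the strongest promoter windows of all genes, 61.4% were higher on fold enrichment (median log2 change 0.06), 55.8% on the pileup (median 0.03) and 34.3% without scaling. The most positive of the 32 were Btg2, an antiproliferative cofactor (0.64, SE 0.22, limma, adjusted p = 0.259), Maff, a small MAF factor (0.56, SE 0.14, adjusted p = 0.161), and Mcl1, which protects from apoptosis (0.49, SE 0.20, adjusted p = 0.372). The fold enrichments of Btg2 were 4.50, 4.49 and 4.39 in WT and 5.87, 6.23 and 6.59 in DKO. Those of Maff were 9.74, 11.7 and 11.6 in WT and 14.3, 15.3 and 13.7 in DKO, and those of Mcl1 5.91, 8.05 and 6.75 in WT and 8.74, 8.18 and 8.82 in DKO. All DKO values were above all WT values at the 3 genes, and on the pileup the log2 changes were 0.15, 0.56 and 0.34 in the same order. The lowest were Egr4, the remaining member of the EGR family (-0.20, SE 0.25), Tiparp, an ADP-ribosyltransferase (-0.07, SE 0.13), and Dusp5, a phosphatase of ERK (0.03, SE 0.17).

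Among the cofactors of SRF, the MAP kinase pathway and the partners of these factors, 8 of 14 promoters were higher in DKO and 6 lower (median log2 change 0.10), 7 were higher on the pileup (median 0.04), and none passed the test in either direction (2 at an unadjusted p under 0.05). The most positive were Mapk3, which encodes ERK1 (0.63, SE 0.19, limma, adjusted p = 0.201), Nab2, a corepressor of EGR proteins (0.34, SE 0.16), and Mrtfb, an actin-regulated SRF cofactor (0.30, SE 0.11, adjusted p = 0.299). Mapk3 had fold enrichments of 6.16, 4.26 and 8.22 in WT and 9.37, 7.84 and 7.28 in DKO, which overlap as deposited. The most negative were Nab1, the other EGR corepressor (-0.21, SE 0.22), and Elk1 (-0.16, SE 0.10). Of the cytoskeletal SRF targets, 11 of 12 had a promoter window, and 9 were higher and 2 lower (median 0.20), 8 were higher on the pileup (median 0.05), and none was past the test in either direction (1 at an unadjusted p under 0.05). Their range ran from Cnn1 (calponin, -0.14, SE 0.14), Tagln (transgelin, -0.06, SE 0.20) and Vcl (vinculin, 0.15, SE 0.10) to Actb (0.30, SE 0.15), Fhl2 (0.31, SE 0.17) and Actg1 (0.62, SE 0.36), the last at fold enrichments of 2.63 to 3.15.

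The genes of the AP-1 subunits, the most similar group, were compared in the same way. Of their 7 promoters, 5 were higher in DKO and 2 lower on fold enrichment (median log2 change 0.20), and 4 were higher on the pileup (median 0.01). None was past the test in either direction (1 at an unadjusted p under 0.05). For the 10 genes these medians were 0.20 and -0.02, with 9 and 2 of 10 higher, and the groups were not tested against each other. Jun had the smallest p of the group, with 8.81, 9.33 and 9.49 in WT and 11.8, 10.9 and 10.7 in DKO (log2 change 0.45, SE 0.14, limma, adjusted p = 0.220). This was the same log2 change as that of Egr1, but on the pileup it was 0.08. By log2 change, Jund (0.32, SE 0.19) and Junb (0.29, SE 0.27) came after Jun, and Fosb (-0.32, SE 0.26), Fosl1 (-0.10, SE 0.14) and Fosl2 (0.18, SE 0.16) were at the other end.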

How the data were processed

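ATAC-seq libraries were made by the authors from 50000 preadipocytes each and sequenced in pairs. Tools named in the submitters' processing notes are bcl2fastq 2.17, cutadapt 1.18, Bowtie2 2.3.4.3 and MACS2, with mm10. Duplicates and mitochondrial reads were removed. MACS2 peaks were called by the authors in each library at a p of 0.01 according to the list names (defaults according to the methods), and the 300000 best were kept. The deposited fold enrichment is the ratio of pileup plus 1 to local background plus 1 in the same library. The deposited p-values and q-values are given by the authors as −log10 values.

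Pileups were recovered from fold enrichment and p with the Poisson model of MACS2, and were whole within 0.02 for 100% of summits. Windows reaching 250 bp to either side of the best-ranked summits were kept where at least 2 libraries had a q under 0.01, on chromosomes 1 to 19 and X. A window took the highest fold enrichment of its summits, or the lowest of its list where it had none. Quantile-normalized log2 values were compared with limma 3.58.1 (R 4.3.3, eBayes with trend, two-sided), DKO minus WT, with Benjamini-Hochberg adjustment over all windows. The scripts were tested on simulated data. The promoter window of a gene was the strongest within 1 kb of its annotated TSS, and distal windows lay over 1 kb from every TSS.

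Named were the 10 promoters, the strongest distal window of each locus, windows that passed the test among all windows or among shared windows (a summit in every library), windows with summits in 1 genotype only, the 10 smallest unadjusted p-values, and the 3 highest and 3 lowest genes of each list, of which 1 is not reported here. The 2 distal CArG windows were described as serum-response matches. The members and lists were chosen with earlier results of these data known. The depth of the libraries is unknown, as read totals were not analysed here, so no interval for counting error is given.

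The alternatives tried were other scalings, −log10 p or pileup in place of fold enrichment, other window filters and peak limits, each library left out, a replicate block, other locus sizes and the window nearest a TSS. Replicate numbers were taken from the titles.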

Additional observations from a re-analysis of the deposited data

How the results depend on the processing

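The number of windows of the 10 loci past the threshold was 0 in the fit of all windows and with each library left out (0 to 0), and likewise among distal windows (0 to 0). It was 1 on the summit pileup (the Myc intron window), 1 among shared windows (a summit in every library), 1 with the 50000 best summits (Myc, 11.5 kb) and 3 without the trend (the Atf3, Myc and Dusp1 windows with summits in DKO only). Among distal windows these counts were 1 among shared windows, 1 with the 50000 best summits and 3 without the trend. The numbers of WT and DKO libraries do not pair them (correlations of same-numbered libraries 0.0054, -0.0115 and -0.0071), and with a replicate block the count was 0. Over all windows, 106 passed, beside 0 with the block, 0 to 6 without 1 library, 26 without scaling, 244 with median centring, 303 without the q filter, 771 with the 50000 best summits and 4136 without the trend. The median log2 change of the 10 promoters was 0.022 without scaling, 0.045 on −log10 p, -0.024 on the pileup and 0.13 to 0.24 without 1 library. That of all 138 windows was 0.003, 0.094, -0.013 and 0.14 to 0.23 in the same order, and 0.086 with missing values left out. Windows with summits in DKO only numbered 1 with the 50000 best summits, 1 by intervals covering 0.5 of the window and 4 to 6 without 1 library, and those in WT only 0, 3 and 1 to 2 (2 without DKO replicate 3).

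The alternatives within the fit of shared windows were added after seeing the data. The count there was 2 with median centring, 0 without scaling, 6 on −log10 p, 4 on the pileup, 0 without the trend and 2 with a replicate block, and 0 to 1 without 1 library (0 without WT replicate 1 or 3 or DKO replicate 2 or 3, and otherwise a window other than that of Egr3). There the Egr3 window at -11 kb had a log2 change of 0.73 without scaling (adjusted p = 0.198), 0.86 without the trend (adjusted p = 0.0655) and 0.74 to 0.95 without 1 library (adjusted p = 0.050 to 0.193), and passed the threshold under the other settings.

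The sign turned for windows that did not pass the test. Without scaling, log2 changes were -0.11 (Egr1, -9.5 kb), -0.11 (Egr3 promoter), -0.14 (Egr3, 18.9 kb), -0.087 (Atf3, 1.7 kb), -0.14 (Dusp1, -6.3 kb) and -0.032 (Srf promoter). On −log10 p they were -0.015 (Egr1, -9.5 kb), -0.020 (Egr3 promoter), -0.14 (Egr3, 18.9 kb), -0.077 (Dusp1, -6.3 kb) and -0.069 (Srf promoter). On the pileup they were -0.024 (Egr1, -9.5 kb), -0.14 (Egr3, 18.9 kb), -0.073 (Dusp1, -6.3 kb), and at promoters -0.020 (Egr2), -0.023 (Egr3), -0.092 (Ier2), -0.021 (Ier5), -0.024 (Atf3), -0.084 (Myc) and -0.11 (Srf). Intervals covering 0.5 of the window gave -0.035 at the Ier2 promoter and 0.043 at the far Dusp1 start, and the 50000 best summits gave -0.003 at Dusp1, -6.3 kb. Without 1 library the ranges were -0.054 to 0.10 (Egr1, -9.5 kb), -0.048 to 0.12 (Egr3, 18.9 kb), -0.083 to 0.13 (Atf3, 1.7 kb), -0.21 to 0.078 (Myc, 16.8 kb), -0.052 to 0.12 (Dusp1, -6.3 kb) and -0.13 to 0.019 (Dusp1, far start). The cause was not tested. Of 683 alternative values in all, 605 kept their direction and their side of the threshold, or stayed close to the first value. The limit of 300000 peaks bounds what a missing summit shows, and 3 libraries against 3 leave few degrees of freedom.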
